A study of Drosophila melanogaster with 60 samples.

Results

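Wild type males were compared with wild type females at the start of metamorphosis, the white prepupa (0 h after puparium formation, APF). The 6 arrays used, 3 of males and 3 of females, were all the arrays of the series labelled wild type at 0 h, out of 60. Both groups were whole animals of the Canton S strain, taken as white prepupae early in the light phase, snap frozen, and pooled for RNA extraction. The labels name no mutation or treatment for them, so sex was the labelled difference between the groups. The series also holds later stages of the same strain and the progeny of tudor mothers (tud progeny), which develop without a germline, with 3 arrays in each of the 20 groups. The tud progeny used here were frozen at the same stage. They came from mothers of the genotype tud, bw, sp and fathers carrying y, w and a GFP transgene on the X chromosome. The progeny therefore differ from Canton S in more than the germline. Only the daughters carry that paternal X chromosome, so the sexes of tud progeny differ in it too. Every array compared a sample with a common reference of pupae of both sexes and all pupal stages, and each value is the log2 of that ratio, sample over reference. A value of 1 is a level 2-fold above the reference, and differences are given as male minus female on the log2 scale.

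At puparium formation a pulse of the steroid hormone ecdysone ends larval life and starts the breakdown of larval tissues and the growth of adult ones. The testis of the white prepupa is already large and filled with spermatogonia and spermatocytes, which transcribe much of what the sperm will later need, whereas the larval ovary is small and has not begun to make eggs. The sexes also differ in every cell. In flies Sex lethal is active in females and directs female splicing, and the non-coding roX RNAs coat the single X chromosome of males in dosage compensation. In whole animals, fewer cells of a type and less RNA per cell cannot be told apart.

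Of 15744 probes, 6022 had values on at least 2 arrays of each sex and were tested by limma. With Benjamini-Hochberg adjustment at 0.15, 1301 probes differed (21.6%), 478 with the higher level in males (7.94%) and 823 with the higher level in females (13.7%). The 1301 were unlike in size. The probes higher in males had a median difference of 1.17 and reached 8.66, while those higher in females had a median of -0.82 and reached -3.19. At least 2-fold differences were seen at 267 probes with the male excess and 253 with the female excess, and at least 8-fold differences at 83 and 2. The plot of group means shows the difference as a band of probes that were near the reference level in males and far below it in females. A ratio this low in females has no firm size, since the values do not show whether the sample signal was above background. Of the probes higher in males, 59 had a female mean under -4.

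**Figure D1:**
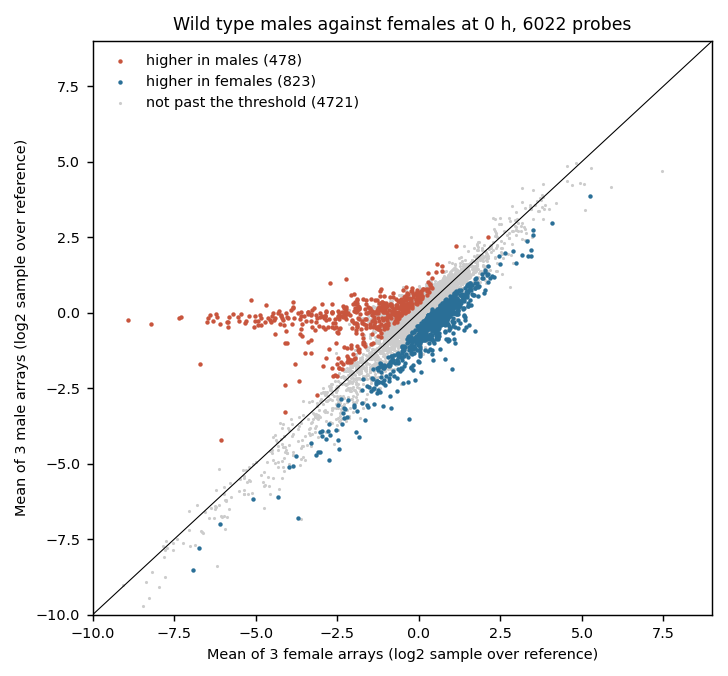
Mean log2 ratio over the 3 male arrays (vertical axis) against the mean over the 3 female arrays (horizontal axis) for the 6022 probes tested, 1 point each. The 478 probes higher in males extend far to the left of the line of equality at male values near 0, and the 823 higher in females lie in a narrow band below it.

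The 3 male arrays were not alike, and this bears on most of the probes higher in females. The arrays held 6578, 7779 and 9033 values in males and 8927, 5697 and 5693 in females. Across probes, Pearson's r was 0.96 between male replicates 1 and 2, and 0.86 and 0.89 between each of them and male replicate 3. Among the females it ran between 0.90 and 0.94. In rank correlation male replicate 3 was closer to the females (Spearman's rho 0.79 to 0.81) than to male replicates 1 and 2 (0.63 and 0.69). Set against the mean of each of the 20 groups, male replicates 1 and 2 ranked highest with their own sex at 0 h (rho 0.85 and 0.92, own array left out), and male replicate 3 ranked highest with the wild type females at 0 h (0.84). All of these correlations are across probes and describe the arrays. Which male arrays are the typical ones cannot be read from 3.

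The same values chose the probes, so what follows describes the arrays and tests nothing. At the probes higher in males, the 3 male arrays lay on the same side. The median difference of a male array from the female mean was 1.35, 1.25 and 0.96 in replicates 1 to 3, and 96.2% of these probes were above the female mean in replicate 3. At the probes higher in females it was -1.10 and -1.0 in replicates 1 and 2 but -0.28 in replicate 3. The males of tud progeny, set against the same wild type female mean, had medians of -0.05, -0.27 and -0.17 there. The females of tud progeny were as low, at -0.17, -0.18 and -0.33. Without male replicate 3, 715 probes had a male excess and 902 a female excess, of 4848 tested. Without male replicate 1 they were 282 and 309, and without male replicate 2 291 and 348. With male replicate 3 as the only male array, a fit chosen after seeing the data in which the lone array is assumed to vary like the other groups, the male excess was called at 138 probes and the female excess at 45. These held 136 of the 478 (28.5%) and 20 of the 823 (2.43%). When the fit used the 6 compared arrays alone, so that the spread came from them and not from all 60, the counts were 198 and 45.

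**Figure D2:**
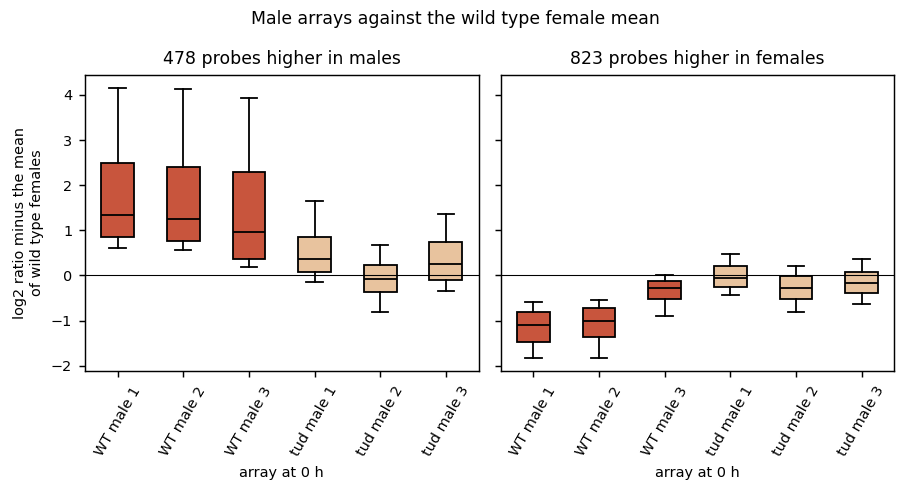
Difference of each male array at 0 h from the mean of the wild type females (log2), for the 478 probes higher in males (left) and the 823 higher in females (right). Boxes span the quartiles with the median as a line, and whiskers the 10th to 90th percentile. Wild type male replicate 3 lies with its partners on the left, with a median of 0.96, and near the tud progeny males on the right, with a median of -0.28.

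The probe for RNA on the X 1 (roX1), 1 of the non-coding RNAs of the male dosage compensation complex, set the direction of the ratios, because the labels and the published methods name opposite dyes for the sample. Which sex was higher at this probe is therefore not a finding. Its log2 ratio was 0.77, 0.76 and 1.4 in males, against -2.79, -2.66 and -2.70 in females. The sexes did not overlap, and male replicate 3 was the highest of all. The difference was 3.70 ± 0.34 (SE, n = 3 each), a 13-fold difference with an adjusted p of 2.8e-10. The SE, here and below, comes from the spread within all 20 groups. RNA on the X 2 (roX2), the other RNA of the complex, was measured on fewer arrays, at 0.51 and -0.00 in 2 males, against -2.78, 0.24 and 0.14 in females. Its sexes overlapped and the difference of 1.05 ± 0.84 (SE) was not past the threshold.

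Sex lethal, the switch gene of female development, had 2 probes. The first (DAC006G03) read -0.53, -0.81 and 0.16 in males, against 0.78 and 0.57 in 2 females. The difference was -1.07 ± 0.33 (SE), adjusted p = 0.026, and without male replicate 2 the adjusted p was 0.154. The second had a value on 1 female array and was not tested. The probe for female lethal d, a splicing cofactor of Sex lethal, read -0.82, -0.56 and 0.74 in males, against 0.61, 0.65 and 0.80 in females (difference -0.90 ± 0.32, SE, adjusted p = 0.062). Here male replicate 3 was among the females, and with it as the only male array the difference was 0.05. CG3056 (sister-of-Sex-lethal in RefSeq) was at -0.31, -0.11 and 0.65 in males and 0.07 and 1.13 in 2 females, and its difference of -0.52 ± 0.30 (SE) was not past the threshold. Transformer, the splicing target of Sex lethal, had values on 2 male arrays, 0.34 and 0.13, and on none of the female arrays.

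The sperm and testis list held 30 probes, 28 of which were tested. Of these 21 had a male excess and none a female excess, and the 28 had a median of 2.25. Among all probes tested 7.94% had a male excess and the median was -0.09. Among the 1986 tested probes with a paired name, which supply the lists, 15.9% had a male excess. With male replicate 3 as the only male array 15 of the list still passed, and with the 6 arrays alone 16. Of the 30 probes, 29 stand in the male germline lists that the study drew from these same samples, so their direction is not independent evidence.

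Of the structural genes, beta-Tubulin at 85D, the testis-specific tubulin of meiosis and the sperm tail, read 0.05, -0.25 and -0.25 in males, against -7.11, -7.91 and -6.86 in females. The sexes were far apart, and the fitted difference was 7.14 ± 0.94 (SE, n = 3 each), adjusted p = 4.6e-07. Male-specific RNA 98Ca, of the family of sperm tail proteins, read -0.20, -0.33 and -0.40 in males, against -7.90, -4.93 and -6.68 in females, a difference of 6.19 ± 0.78 (SE). Its relative Male-specific RNA 98Cb differed by 3.92 ± 0.77 (SE). Male-specific RNA 87F and the neighbours 84Dc and 84Dd, which encode small cysteine-rich sperm tail proteins, differed by 4.07, 4.25 and 3.46. Tektin C, a component of the axoneme, read 0.48, 0.53 and -0.18 in males, against -2.41, -1.39 and -1.99 in females (difference 2.20 ± 0.32, SE). Male replicate 3 was the lowest male for all of these except beta-Tubulin at 85D and Male-specific RNA 84Dd, yet stood well above every female.

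The genes that pack sperm chromatin were measured in prepupae too. Male-specific transcript 77F, a histone-like protein of the sperm nucleus, was well below the reference in males, at -2.63, -1.93 and -0.58, and still lower in females, at -6.61, -6.74 and -6.76. The difference was 4.99 ± 0.73 (SE, n = 3 each), adjusted p = 3.0e-06. Male-specific transcript 35Ba, the protamine ProtA, read 0.14, 0.48 and -0.21 in males, against -4.26, -3.81 and -3.54 in females (difference 4.01 ± 0.54, SE). This gene has a near-identical neighbour, ProtB, and a probe may read both.

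Hsp60C, a mitochondrial chaperonin needed in spermatogenesis, read 0.12, -0.06 and -0.24 in males, against -7.42, -5.26 and -6.00 in females, a difference of 6.16 ± 0.74 (SE), adjusted p = 2.4e-07. Cytochrome c distal, the testis cytochrome c, had 2 values in each sex, 0.06 and -0.47 in males, against -5.52 and -1.76 in females. The 2 females were far from each other, and the difference of 3.43 ± 0.71 (SE) (adjusted p = 0.0012) did not pass with the 6 arrays alone (adjusted p = 0.26). tomboy20, a testis form of a mitochondrial import receptor, differed by 3.41 ± 0.58 (SE), and Thioredoxin T, a testis thioredoxin, by 2.55 ± 0.71 (SE).

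The probe for boule, an RNA-binding protein that meiotic entry requires in males, read -1.22 and -0.12 in 2 males, against -3.71, -1.24 and -2.45 in females. The lower male nearly met the highest female, and the difference was 1.80 ± 0.42 (SE), adjusted p = 0.0035. eIF4E-3, a cap-binding protein of the testis, read 0.46, 0.42 and -0.08 in males, against -2.65, -1.42 and -2.01 in females (difference 2.30 ± 0.56, SE). Androcam, a calmodulin-like protein of the testis, differed by 3.48 ± 0.87 (SE). The smallest differences past the threshold were 0.43 for Sperm-specific dynein intermediate chain 1, 0.89 for gonadal, 0.99 for janus A, 1.17 for Ribosomal protein L22-like and 1.20 for Sperm-specific dynein intermediate chain 2. The Sdic genes are near-identical tandem copies, so their probes are uncertain. The 7 listed probes that did not pass were Porin2, Roc1b, tomboy40, Klp59D, Prosbeta5R1, Sperm-specific dynein intermediate chain 3 and Hex-t2. Hex-t2, a testis hexokinase, read 0.15, -0.04 and 0.24 in males, against 0.17, 0.86 and 0.44 in females, with no male excess.

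**Figure D3:**
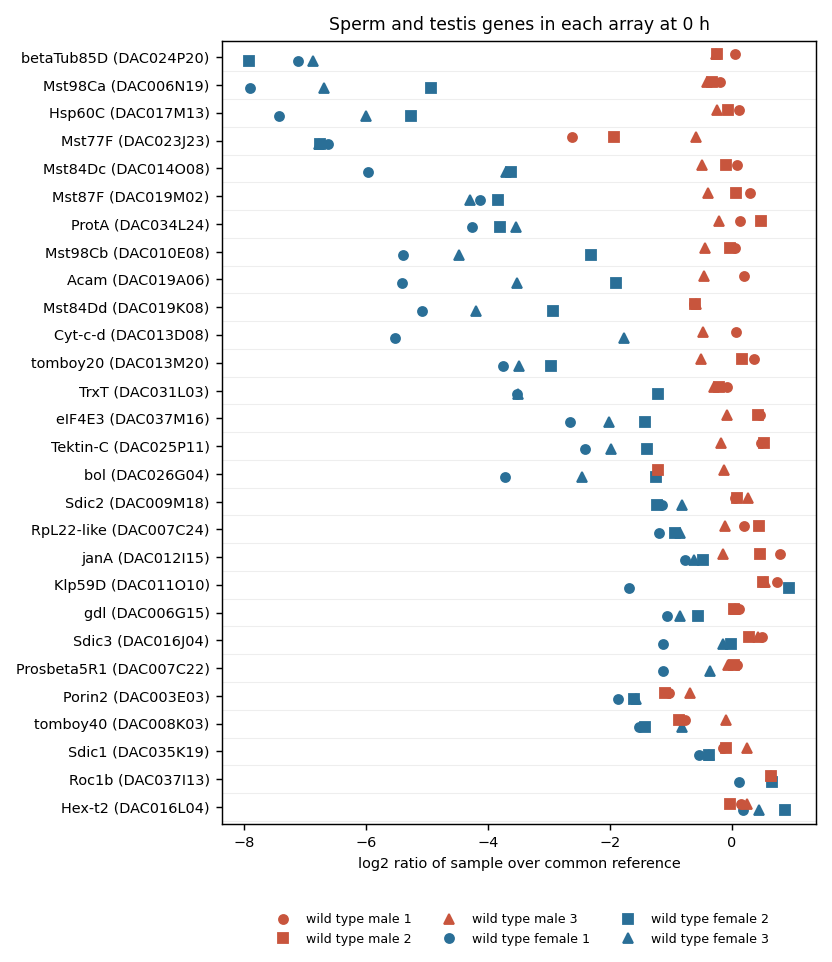
Log2 ratio to the reference (horizontal axis) of the 28 tested probes of the sperm and testis list (rows, ordered by male minus female) on each wild type array at 0 h, males above females within a row. The males of the upper rows lie near 0 with the 3 replicates close together, except Mst77F, and the females are spread between about the same level in the lowest rows and -7.91 for betaTub85D.

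Outside that list, the named probes with the largest differences were of the same kind of pattern. CG6372 (S-Lap1 in RefSeq, a sperm leucyl-aminopeptidase) read -0.17, -0.52 and -0.41 in males, against -8.45, -8.41 and -7.78 in females. Its difference of 7.84 ± 0.83 (SE, n = 3 each) was the largest of the named probes with values on all 6 arrays, with an adjusted p of 6.5e-09. CG32351, its relative S-Lap2, differed by 5.65 ± 0.71 (SE). CG31468 read -0.00, 0.13 and -0.41 in males, against -7.97, -5.59 and -5.63 in females. CG4836 read -0.32, -0.06 and -0.05 in males, against -6.22, -5.55 and -6.81 in females. CG7045 (tHMG1, an HMG-box protein of spermatids) read 0.51, 0.67 and 0.02 in males, against -5.22, -5.25 and -5.02 in females. In all 5 of these the males were close to the reference and the females far below it. CG9016, CG31988, CG3124 and CG15219 differed by 5.72, 5.69, 5.57 and 5.53. Of the probes with no paired name, DAC033J14 differed by 7.19, DAC009E05 by 5.39 and DAC011P10 by 4.29. All 12 named probes of this kind stand in the study's male germline lists, which also supply many of the names.

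Some probes gave values in 1 sex only, which means that both sample and reference were weak in the other sex or that the element was discarded. Of 15744 probes, 153 had values on all 3 male arrays and no female array, and 16 on all 3 female arrays and no male array. With 2 or 3 arrays required these counts were 354 and 84. The arrays themselves held 6578, 7779 and 9033 values in males and 8927, 5697 and 5693 in females. The part of this coverage in the imbalance was not tested. Tud progeny males had no value at 56 of the 153, and the share without one among all probes was not counted. Their arrays differed in coverage too, with values at 3589, 5690 and 5344 of the 6022 tested probes. Among the named ones, CG14931 read 0.85, 0.52 and 0.57 in males, CG9316 read 0.61, 0.59 and 0.09, and Rtnl2, a reticulon-like gene, 0.54, 0.05 and 0.55. CG15625, CG12679 and CG11165 completed the 6 with the highest male means. None of the 16 female probes had a paired name. The receptor for yolk proteins, yolkless, had values on all 3 female arrays, 1.28, 1.02 and 1.21, and on 1 male array, 0.45, and so was not tested.

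Of 24 probes for genes named for the ovary and the egg 20 were tested, with a male excess at 4, a female excess at 2, and a median of 0.09. Over all probes 7.94% had a male and 13.7% a female excess. Among the 1986 tested probes with a paired name, which supply the lists, the shares were 15.9% and 13.3%. The probe DAC037B05 for exuperantia, which localizes bicoid mRNA in the oocyte and is also known in spermatogenesis, read -0.42, -0.36 and -0.02 in males, against -6.14 and -3.94 in 2 females. All males were far above both females, and the difference was 4.77 ± 0.93 (SE), adjusted p = 5.9e-04. A second probe for exuperantia overlapped between the sexes, with a difference of 0.75 that was not past the threshold. arrest (bruno 1 in RefSeq), a translational repressor of the germline of both sexes, read -0.17, -0.09 and -0.26 in males, against -3.33, -3.13 and -2.92 in females. cup, an eIF4E-binding repressor, read -0.06 and -0.33 in 2 males, against -2.07, -1.89 and -1.67 in females. The probe for quail, a villin-like protein of nurse cell actin, read -0.28, -0.47 and -0.42 in males, against -2.26, -0.88 and -1.96 in females. The differences of arrest, cup and quail were 2.95, 1.68 and 1.31. All of these 4 probes are in the study's male germline lists. The 2 probes higher in females were gustavus, a binding partner of Vasa, at -0.65, -0.48 and 0.63 in males, against 0.96, 1.08 and 1.07 in females, and Chorion protein b at 7F, at 0.25, 0.09 and 0.87 in males, against 1.25, 1.19 and 1.11 in females.

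Among the probes higher in females (13.7% of those tested), the largest named differences were smaller than those of the testis genes and differed in how the male arrays fell. The SE is pooled over all 20 groups, while at the probes higher in females the median SD was 0.48 in wild type males and 0.20 in wild type females. CG9086 (Ubr1, a ubiquitin ligase of the N-end rule) read -1.34, -1.55 and 1.13 in males, against 1.67, 1.16 and 1.33 in females. Its difference of -1.97 ± 0.35 (SE, adjusted p = 9.4e-05) came from 2 of 3 males. With male replicate 3 as the only male array the difference was -0.26. CG13830 (Cow, a secreted proteoglycan that binds Wingless) read -1.53, -0.76 and 1.05 in males, against 1.37, 1.74 and 1.51 in females, a difference of -1.95 ± 0.36 (SE). The probe named LDLa domain containing chitin binding protein 1 (verm in RefSeq), a chitin deacetylase gene, read -4.11, -3.40 and -1.59 in males, against -1.46, -1.46 and -1.23 in females. The same split was seen at broad, CG13674, CG6370 (OstDelta, of the oligosaccharyltransferase), CG14148, gustavus, ariadne (a ubiquitin ligase) and yellow-c, at all of which male replicate 3 was the male nearest to the females. Of the 3 probes with no paired name, DAC033K24 read -2.29, -1.72 and 0.95 in males, against 1.25, 1.04 and 1.04 in females, and DAC024A19 had a like pattern.

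Other named probes were also higher in females. CG4500 (hll in RefSeq, an acyl-CoA synthetase-like gene) read -2.25, -2.58 and -2.98 in males, against -0.38 and -0.98 in 2 females. Male replicate 3 was here the lowest male, and the difference was -1.93 ± 0.29 (SE), adjusted p = 7.8e-06. CG32182 read -2.88, -3.89 and -3.86 in males, against -2.17, -0.29 and -2.53 in females (difference -1.88 ± 0.49, SE). CG13154 read -5.01, -5.20 and -4.48 in males, against -3.13, -1.23 and -3.95 in females, and its difference of -2.13 ± 0.90 (SE) was no longer past the threshold without female replicate 2 (-1.36). DAC013D09 read -4.0, -3.99 and -3.88 in males, against -2.93, -1.20 and -1.68 in females.

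**Figure D4:**
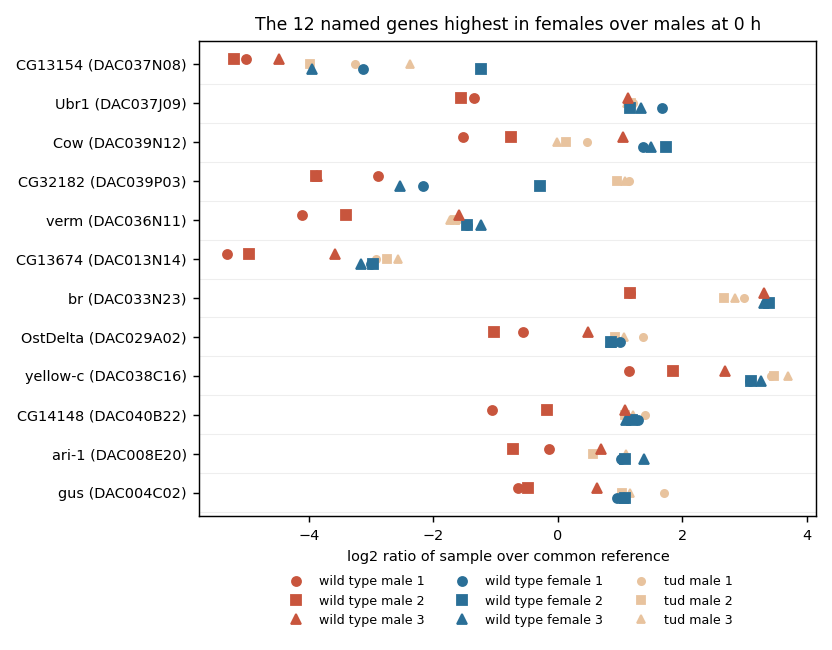
Log2 ratio to the reference (horizontal axis) of the 12 named probes with the largest female excess (rows) on each array at 0 h, with wild type males above females within a row and the males of tud progeny between them. At Ubr1 wild type male replicates 1 and 2 lie at -1.34 and -1.55, while replicate 3 at 1.13 lies beside the females and the tud progeny males.

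The ecdysone response list had 25 probes tested, of which 5 had a female excess and none a male excess (median -0.12), beside 13.7% of all probes with a female excess. Of the 25 probes, 17 stand in the male or female germline lists that the study drew from these same samples. Their direction is therefore not independent evidence. With quantile normalization 1 passed. None of the 5 passed with male replicate 3 as the only male array. broad, the transcription factor that ecdysone induces at the onset of metamorphosis, read 1.15, 1.16 and 3.31 in males, against 3.35, 3.39 and 3.31 in females at probe DAC033N23. The difference of -1.48 ± 0.50 (SE, adjusted p = 0.048) was again carried by male replicates 1 and 2, and was -0.04 with male replicate 3 alone. Sox box protein 14, an early ecdysone target, read 0.50, 0.93 and 2.02 in males, against 2.17, 1.57 and 2.16 in females. Ecdysone-induced protein 63E, a cyclin-dependent kinase, read 0.28, 0.35 and 1.21 in males, against 1.21, 1.45 and 1.31 in females. taiman, a coactivator of the ecdysone receptor, read -0.37, -0.14 and 0.87 in males, against 0.85 and 1.24 in 2 females. Eip93F, a regulator of larval cell death, had all 3 males below the females, at -0.56, -0.70 and -0.10, against 0.10, 0.18 and 0.38. The 6 genes of the 71E puff of the salivary gland, 71Eb to 71Eg, had differences between -0.37 and 0.44, and none passed.

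The cuticle and pigment list, of genes of the exoskeleton, had 24 probes tested, of which 5 had a female excess and none a male excess (median -0.56), beside the same 13.7% of all probes. With male replicate 3 as the only male array 1 of them passed, krotzkopf verkehrt. Both probes of Cuticular protein 49Ac were lower in males (-1.12 and -0.86), with male replicate 3 at 2.05 within the female range of 1.97 to 2.33 at the first probe. Gasp, a chitin-binding protein of the tracheae, read -4.61, -4.44 and -3.18 in males, against -3.09, -2.95 and -2.89 in females. obstructor-E, which shapes the larval and pupal cuticle, differed by -1.26 and krotzkopf verkehrt, the epidermal chitin synthase, by -0.66. The largest difference of the list, -3.22 ± 1.55 (SE) for Cuticular protein 72Eb, had an adjusted p of 0.19 and did not pass.

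The proteasome list had 27 probes tested, of which 5 had a female excess and none a male excess (median 0.04), again beside 13.7% of all probes. Rpt4, Tat-binding protein-1 (Rpt5) and Pros45 (Rpt6) are ATPases of the regulatory particle, and Rpn12 and Mov34 (Rpn8) are other subunits of it. Rpt4 read 0.32 and 1.44 in male replicates 1 and 3, against 1.62, 1.80 and 1.90 in females, and the other 4 differed by -0.75, -0.56, -0.73 and -0.58 in the order named. Mov34 was at -0.17, 0.42 and 1.30 in males, with male replicate 3 above every female. The direction of this list depended on the scaling. With quantile normalization 8 probes had a male excess and 1 a female excess, and with each array centred on its median 3 and 4. Without male replicate 3 the counts were 6 and 4, and with it as the only male array 0 and 0.

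The next lists were short, and over all probes 21.6% passed in either direction. In the larval fat body and serum list 1 of 9 probes passed. Phosphoenolpyruvate carboxykinase, the rate-limiting enzyme of gluconeogenesis, read 0.24, -0.11 and 0.57 in males, against 1.03, 0.89 and 1.12 in females (difference -0.78 ± 0.24, SE, adjusted p = 0.024). Larval serum protein 1 alpha, an X-linked storage protein, read -1.64, -1.23 and -0.67 in males, against -0.70, -1.07 and -0.81 in females, and Transferrin 1, an iron carrier, -2.30, -2.50 and -2.66 in males, against -2.88, -2.82 and -2.44 in females. Neither difference passed. The midgut proteases Jonah 65Aiii and Jonah 65Aiv were high in both sexes, at 3.24 to 3.83 and 3.29 to 3.96 in males, against 3.40 to 3.70 and 3.61 to 3.94 in females. No probe of the larval gut (11) or muscle (13) lists passed, with medians of 0.11 and -0.15. Of 10 ribosome probes only Ribosomal protein L6 passed (-0.38), with a list median of -0.00.

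In the immune list 1 of 19 probes passed, beside 21.6% of all probes in either direction. It was Turandot A, a stress-induced humoral factor, at 0.64, 0.80 and -0.30 in males, against -0.76, -0.58 and -0.45 in females. The difference was 0.98 ± 0.27 (SE) and was 0.30 with male replicate 3 as the only male array. In the heat shock list 1 of 11 passed, beside the same share of all probes. It was Heat shock protein cognate 2, which is also in the study's male germline lists, at -0.41, -0.15 and 0.23 in males, against -3.70 and -1.08 in 2 females. Its difference was 2.28 ± 0.64 (SE).

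**Figure D5:**
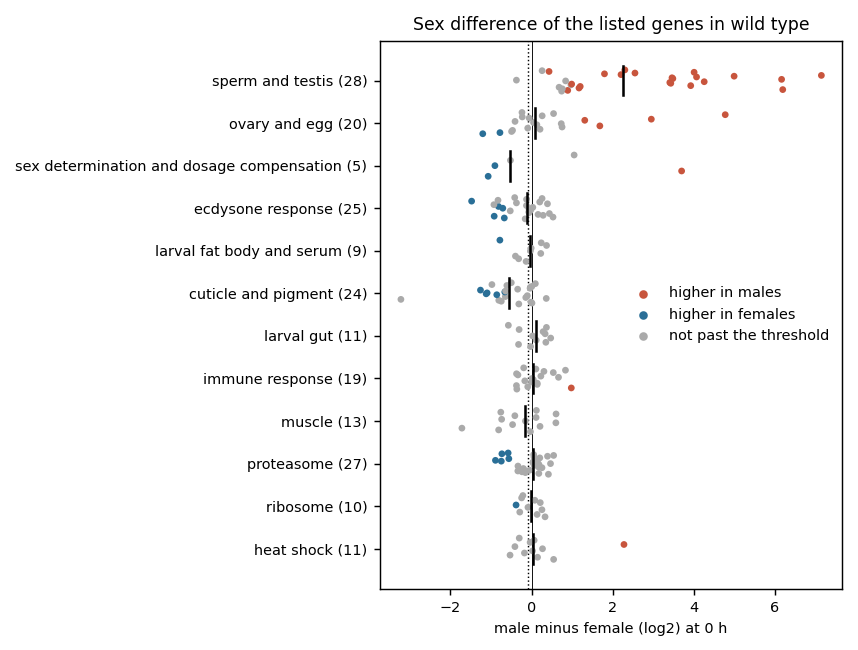
Male minus female difference (log2, horizontal axis) of each tested probe of the 12 gene lists (rows, number of tested probes in brackets) in wild type at 0 h. Colours mark probes past the threshold, higher in males or in females, the thick tick is the median of a list, and the dotted line the median of all probes tested, -0.09. The sperm and testis list has a median of 2.25, and the medians of the other lists lie between -0.56 and 0.11.

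Of the other genes that the study discusses for this stage, CG1441, a fatty acyl-CoA reductase-like gene, had 2 values in each sex, 0.83 and -1.29 in males, against -2.18 and -1.10 in females. The groups overlapped, and the difference of 1.41 ± 0.46 (SE, adjusted p = 0.036) was 0.35 with male replicate 3 alone. The homeotic gene abdominal A read 1.4, 1.85 and 1.04 in males, against 1.30, 1.46 and 1.35 in females. Both probes of the eye pigment transporter gene white overlapped between the sexes, with differences of -0.29 and -0.18.

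The same comparison in animals without a germline gave 2 probes of 6216 past the threshold (0.0322%), 1 with a male excess (0.0161%) and 1 with a female excess (0.0161%), while 219 had an unadjusted p under 0.05. The 2 were the genes just described as sex-different with all 3 wild type males on 1 side. roX1 read 1.21, 1.01 and 1.18 in tud progeny males, against -3.55, -3.73 and -3.10 in tud progeny females. CG4500 read -2.43 and -2.84 in tud progeny males, against -1.56, -1.21 and -0.90 in tud progeny females (difference -1.41 ± 0.29, SE, adjusted p = 0.054). For neither did the wild type difference differ from that of tud progeny past the threshold (-0.89, adjusted p = 0.34, and -0.51, adjusted p = 0.58).

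The sex difference of wild type minus that of tud progeny was past the threshold at 596 of 5180 probes (11.5%), positive at 229 (4.42%) and negative at 367 (7.08%). Of the sperm and testis list 20 of 27 tested probes were past it, and 0 of 29 differed between the sexes of tud progeny, where the median difference was -0.18. beta-Tubulin at 85D, for example, read -6.90, -7.92 and -7.89 in tud progeny males, against -8.29, -6.62 and -5.65 in tud progeny females, the level of the wild type females. The dependence on genotype was 7.86 for this gene, 8.35 for CG6372, 5.12 for exuperantia, 2.18 for arrest and 1.90 for cup. Of the probes higher in wild type females, CG9086 read 1.21, 1.17 and 1.11 in tud progeny males, against 1.22, 1.10 and 0.58 in tud progeny females, and its dependence on genotype was -2.17. Phosphoenolpyruvate carboxykinase read -0.26, -0.21 and 0.04 in tud progeny males, against -0.67, -0.60 and -1.30 in tud progeny females, a difference of 0.71 that did not pass (adjusted p = 0.92). Its dependence on genotype was -1.49 (adjusted p = 0.0049). These dependences contain the wild type difference itself. The study's male germline lists were also drawn by a higher level in wild type males than in tud progeny males of these samples. For their members, most of the sperm and testis list among them, the dependence on genotype is therefore not independent evidence. The count of 596 was 192 without wild type male replicate 1, 296 without replicate 2 and 985 without replicate 3. It was 369 without wild type female replicate 3 and 378 without tud progeny female replicate 3.

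The sexes were also set side by side at 24 h, where 36.2% of 6563 probes passed, 848 with a male excess (12.9%) and 1530 with a female excess (23.3%). The difference at 24 h minus that at 0 h was past the threshold at 539 of 5265 probes (10.2%), positive at 319 (6.06%) and negative at 220 (4.18%). This count was 207 without male replicate 1 of 0 h, 285 without replicate 2 and 1125 without replicate 3. It was 311 without male replicate 1 of 24 h and 280 without female replicate 1 of 24 h. For roX1 the male excess was 3.70 at 0 h and 5.62 at 24 h, with a change of 1.92 (adjusted p = 0.020). In the sperm and testis list 9 of 24 tested probes changed, all upward, among them Male-specific RNA 87F (4.07 at 0 h and 6.20 at 24 h) and Tektin C (2.20 and 3.87). Porin2 and Hex-t2, a mitochondrial porin and a hexokinase of the testis, had no sex difference past the threshold at 0 h, and changed by 1.77 and 1.29. exuperantia was at 4.77 and 8.46, a change of 3.69 (adjusted p = 0.10). In the cuticle and pigment list only 2 of 24 tested probes changed, beside the 10.2% of all probes. At obstructor-E the difference was -1.26 at 0 h and 1.33 at 24 h, and at Gasp -1.10 and 0.73. The changes of these 2 were 2.59 and 1.83. CG4500 differed by -1.93 at 0 h and by -0.43 at 24 h, a change of 1.49 (adjusted p = 0.024).

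The means of the later stages did not enter the choice of the probes, but their spread did, since it is pooled for each probe. The calls are therefore not independent between stages. Read at the later stages, the 478 probes higher in males at 0 h were mostly higher in males there too. Of 396 tested at 24 h, 287 were called higher in males (72.5%), and at 48, 72 and 96 h 60.4%, 59.4% and 64.2% of those tested were, beside 12.9%, 8.57%, 10.4% and 20.6% of all probes at the 4 stages. In either direction 24.1%, 37.3% and 42.2% of all probes passed at 48, 72 and 96 h. Of the 823 probes higher in females, 303 of 772 tested at 24 h (39.2%) were higher in females there, beside 23.3% of all probes, at 48 h 25.1% beside 15.5%, at 72 h 23.5% beside 26.9%, and at 96 h 17.6% beside 21.5%. At 96 h 20.5% of them were higher in males, beside 20.6% of all probes. The median difference of the 478 was 1.24, 1.12, 1.03 and 1.20 at the 4 later stages, and that of the 823 was -0.41, -0.40, -0.24 and 0.06.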

How the data were processed

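Transcript levels were measured on 2-colour oligonucleotide arrays. The authors deposited log2 ratios of sample to common reference, which had gone through global loess normalization array by array with limma (its version is not given in the sources used here), after discarding elements flagged by eye or by the scanner software and elements weak in both channels. A missing value is therefore an element that was weak in both channels or discarded. Background correction is not stated, the array medians were not 0, and no raw intensities were used here, so effects of dye or background could not be looked at. The labels do not say that replicates came from separate cultures, so p-values measure the spread between pools. That spread was taken from all 20 groups, not from the compared arrays alone. The number of pools limits the precision.

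One linear model with 20 group means and all 60 arrays was fitted in limma 3.58.1 (R 4.3.3), with empirical Bayes moderation over the probes tested. A probe was tested where each group compared had at least 2 values, and Benjamini-Hochberg adjustment ran over all of them, with a threshold of 0.15. The 32 control elements were left out. The fit was tested on simulated data. Of 200 simulated changed probes among 6022, 79% were recovered, and 15.1% of the calls were false. These shares describe the simulated data only and do not give the false share among the calls made on the real arrays. Whether they hold where replicate arrays differ as the wild type males at 0 h did was not tested. Plots were drawn with matplotlib 3.10.9 in Python 3.11.15, using pandas 2.3.3 and numpy 2.4.6.

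Names pair 2357 probes with a gene. They come from the study's gene lists, and 2343 of them matched RefSeq, which gave the current symbols. No coordinates are given, because the annotation at hand is of another release than the probes. Named genes are those of 12 gene lists that passed or define a list, the genes the study discusses for this stage, the 12 named and 3 unnamed probes that passed with the largest male and female excess, 6 values and no overlap, and the 6 named probes with values in 1 sex only and the highest mean. The members and lists were chosen with earlier results of these data known. The alternatives were other scalings, array weights, a floor of -4, stricter value and p limits, Storey's q, the compared arrays alone, a replicate block leaving out each array, and, chosen after seeing the data, male replicate 3 as the only male array.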

Additional observations from a re-analysis of the deposited data

Results flagged for a closer look

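Interaction tests in limma showed that the sex difference at 0 h was not the same as at 24 h at 539 probes, and not the same in wild type as in tud progeny at 596 probes.

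Of the named genes, the male minus female difference was larger at 24 h than at 0 h, on the log2 scale, by 3.08 for CG32351, 1.92 for roX1, 1.11 for cup, 2.43 for CG4836, 1.44 for quail, 2.80 for CG3124 and 3.69 for exuperantia. It was less negative or turned positive by 1.83 for Gasp, 1.49 for CG4500, 2.59 for obstructor-E, 1.47 for CG9086 and 1.23 for CG14148. CG1441 moved the other way, by -1.76.

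The wild type difference exceeded that of tud progeny by 5.92 for CG32351, 6.39 for Male-specific RNA 98Ca, 4.24 for CG31988, 6.49 for CG31468, 6.72 for Hsp60C, 1.90 for cup, 7.86 for beta-Tubulin at 85D, 6.22 for CG4836, 8.35 for CG6372, 2.18 for arrest, 5.70 for CG3124, 5.12 for exuperantia and 6.07 for CG7045. It was more negative by -1.59 for gustavus, -0.96 for Chorion protein b at 7F, -1.98 for CG13674, -1.26 for Cuticular protein 49Ac, -1.23 for CG6370, -2.13 for LDLa domain containing chitin binding protein 1, -2.17 for CG9086, -1.42 for yellow-c, -1.49 for CG13830, -1.87 for CG32182 and -1.39 for CG14148. At all of these more negative ones except CG32182, male replicate 3 was the wild type male nearest to the females. The part of the arrays in these differences was not tested. Members of the study's male germline lists were selected there for a higher level in wild type males than in tud progeny males.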

How the results depend on the processing

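The count of 1301 probes past the threshold was 1256 with each array centred on its median (633 higher in males, 623 in females), 1056 with quantile normalization (461 and 595), 917 with values on all 3 arrays of each sex, 1288 with a floor of -4 and 1659 with Storey's q. It was 725 at an adjusted p under 0.05 (311 and 414), 243 with the compared arrays alone (198 and 45), 183 with male replicate 3 as the only male array (138 and 45, chosen after seeing the data) and 2423 with array weights (957 and 1466), whose estimation did not converge. Leaving out each of the 6 arrays in turn gave 591 to 1617 in all, 279 to 715 higher in males and 309 to 902 higher in females; 161 of the 478 and 158 of the 823 passed in all 6 of these fits. The cause of these movements was not tested.

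The count of probes whose sex difference changed between 0 h and 24 h, 539, was 117 with the compared arrays alone, 1397 with array weights, 179 at 0.05 and 207 to 1125 with arrays left out. The count that depended on genotype, 596, was 269 with quantile normalization, 248 with the compared arrays alone, 1258 with array weights, 394 with values on all 3 arrays (fewer probes tested), 246 at 0.05 and 192 to 985 with arrays left out.

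The 85 named probes compared across the alternatives were kept mainly because they passed in the main fit. That 76 of them passed there is therefore no result. The sign turned for Transferrin 1 (-0.19) and 1 probe of white (0.027) with quantile normalization, for abdominal A without male replicate 2 (-0.15, against 0.25 without male replicate 3), and with male replicate 3 as the only male array for Larval serum protein 1 alpha (0.19), female lethal d (0.047), abdominal A (-0.33), CG3056 (0.051), Sox box protein 14 (0.055) and Mov34 (0.20). In that fit female lethal d, Sox box protein 14 and Mov34 no longer passed, and nor did 39 named probes that kept their sign. With the compared arrays alone 42 named probes no longer passed.

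Samples with the same replicate number did not deviate together (r -0.11, 0.04 and -0.03 over 3401 probes), so the numbers were not taken to pair them. With the replicate number as a block the count was 1203 of 5552, and the other counts were 521 and 551.

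Probes with values in 1 sex only were 354 in males and 84 in females when 2 or 3 arrays were asked for. Spearman's rho between replicates was 0.918, 0.630 and 0.695 in males and 0.853, 0.868 and 0.878 in females. Without raw intensities, signal over background could not be examined.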
